A study of Mus musculus with 2 samples.

Results

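The MYC, MAX and MXD network was followed in bone marrow-derived MDSC through the transcripts of 9 genes, Myc, Max, Mxd1, Mxd3, Mxd4, Mxi1, Mnt, Mlx and Mga, which were taken by symbol from the 32285 genes listed in the files. Each of the 9 was detected, with at least 100 unique molecular identifiers (UMIs) over both libraries, as were 13305 genes in all. Bone marrow from female C57BL/6 mice aged 10 weeks was grown in GM-CSF and IL-6 (50 ng/mL each) over 4 days, either with 1.5 µM dabrafenib (DAB), a BRAF inhibitor, or with an equal volume of its solvent DMSO, and 1 single-cell RNA library (10x Genomics 5′ v2 chemistry) was made per condition. How many mice went into a library is not stated, both cultures received the same cytokines, and the cells were unsorted, so the libraries hold cells outside the MDSC lineages. S100a8, a gene of granulocytic and monocytic MDSC, reached 18259 CPM in DMSO and 17647 CPM in DAB. With 1 library per condition no difference could be set against a spread between replicates: no test was made, and every interval below is a 95% interval that covers counting error only.

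MYC is a basic helix-loop-helix leucine zipper protein that binds the DNA sequence called the E-box as a dimer with MAX and activates genes of ribosome production, metabolism and cell cycle entry. The MXD proteins (MXD1, MXI1, MXD3 and MXD4) and MNT compete for MAX and repress E-box genes through SIN3 and histone deacetylases, MGA joins MAX to a Polycomb complex, and MLX is a MAX-like partner of the glucose-responsive factors MondoA and ChREBP. In granulocytes, MYC is known for the proliferating progenitor stages and MXD1 for terminal differentiation.

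The genes lie on 8 chromosomes of GRCm38. Myc is at chr15:61985391-61990374, Max at chr12:76937269-76962201, Mxd1 at chr6:86647042-86669161, Mxd3 at chr13:55325168-55329823, Mxd4 at chr5:34173883-34187720, Mxi1 at chr19:53310518-53375810, Mnt at chr11:74830920-74845725, Mlx at chr11:101087277-101092207 and Mga at chr2:119897228-119969581. Network proteins are known to act on network genes, and the promoters were therefore searched for the palindromic E-box CACGTG, from 250 bases before to 50 bases after the RefSeq start (GRCm38.p6). Of the 8 members with a promoter in that table, 4 held the motif (Max, Mlx, Mnt and Mxd4), against 8.09% of the 27025 genes in the table. The windows of Mxd1, Mxi1, Mxd3 and Mga did not hold these letters, and Myc had no entry. The stretches around the 4 motifs are shown 5′ to 3′ on the strand of the gene, with the E-box in capitals. They are chr12:76962237-76962311 (minus strand) for Max, chr11:101087190-101087301 (plus) for Mlx, chr11:74830741-74830866 (plus) for Mnt and chr5:34187864-34187960 (minus) for Mxd4.
Max: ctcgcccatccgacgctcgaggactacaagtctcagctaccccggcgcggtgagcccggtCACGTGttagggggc
Mlx: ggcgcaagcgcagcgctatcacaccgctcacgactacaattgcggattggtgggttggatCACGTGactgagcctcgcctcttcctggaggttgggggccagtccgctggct
Mnt: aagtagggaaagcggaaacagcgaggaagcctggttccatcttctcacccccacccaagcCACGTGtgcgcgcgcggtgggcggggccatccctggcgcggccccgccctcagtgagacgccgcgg
Mxd4: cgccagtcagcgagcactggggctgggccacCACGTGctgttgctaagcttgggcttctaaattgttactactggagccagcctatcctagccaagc
The E-box of Max began 3 bases before the start, that of Mlx 40, that of Mnt 123 and that of Mxd4 219 bases before it. Among the genes listed here as activated by MYC, 8 of 24 with a promoter in the table held the motif, and among the MYC-repressed genes 2 of 10. The 4 members with an E-box did not share a direction between the libraries, as described next.

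Over all cells, the network differed between the libraries mainly through its activator and 2 of its repressors. Myc was higher in DAB, and Mxd1 and Mxi1 were lower. A gene was called past the fold when the log2 ratio of its CPM (UMIs of the gene scaled to a common total per library), DAB over DMSO, was at least 0.5 in size with an interval without 0. By that rule 1 of the 9 members was higher in DAB, against 14.4% of all 13305 genes, and 2 were lower, against 16% of all genes, so the number of members called was close to the background. The median log2 ratio of all genes was -0.0032. In sums over all cells, fewer cells of a type and less RNA per cell cannot be told apart, and levels within cell classes follow further down.

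Myc measured 45.5 CPM in DMSO (interval 44.1 to 46.9) and 79.6 CPM in DAB (78.1 to 81.0), a log2 ratio of 0.81 (0.76 to 0.86). Its ratio lay above that of 93.5% of all genes. Max, the partner that MYC, the MXD proteins, MNT and MGA all need, measured 37.5 CPM in DMSO and 46.3 CPM in DAB, a log2 ratio of 0.30 (0.24 to 0.36). Max was thus higher in DAB by less than the fold used for a call.

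Mxd1, the MXD gene linked to terminal myeloid differentiation, measured 135 CPM in DMSO (132 to 137) and 50.3 CPM in DAB (49.1 to 51.5). This was a log2 ratio of -1.42 (-1.46 to -1.38), or 2.68-fold lower in DAB, and only 2.34% of all genes had a lower ratio. Mxi1, a second repressor of the family, measured 161 CPM in DMSO (159 to 164) and 103 CPM in DAB (101 to 104), a log2 ratio of -0.65 (-0.68 to -0.62). Mnt, the repressor present in most cell types, measured 21.3 CPM in DMSO and 16.5 CPM in DAB, a log2 ratio of -0.37 (-0.46 to -0.28). Mxd4 measured 25.3 CPM and 21.8 CPM, with a log2 ratio of -0.21 (-0.29 to -0.14). These 4 repressor genes were all lower in DAB, 2 of them past the fold. Mxd3, the fifth, had few UMIs (361 in DMSO and 616 in DAB), with 3.89 CPM and 4.36 CPM and a log2 ratio of 0.16 whose interval (-0.03 to 0.36) held 0.

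Mlx measured 34.1 CPM in DMSO and 47.4 CPM in DAB, a log2 ratio of 0.48 (0.41 to 0.54), just short of the fold. Mga measured 29.7 CPM and 32.2 CPM, a log2 ratio of 0.12 (0.05 to 0.19). As a mean over cells, in which each cell weighs the same, the log2 ratio was 0.13 for Max, -0.22 for Mnt, 0.26 for Mga and -0.49 for Mxi1, which then missed the fold, against 0.72 for Myc and -1.27 for Mxd1. With the classes and clusters described next weighted as in DMSO, Myc had 0.83 and Mxd1 -1.27. Of the 4 members with an E-box, Max and Mlx were thus higher in DAB and Mnt and Mxd4 lower.

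**Figure D1:**
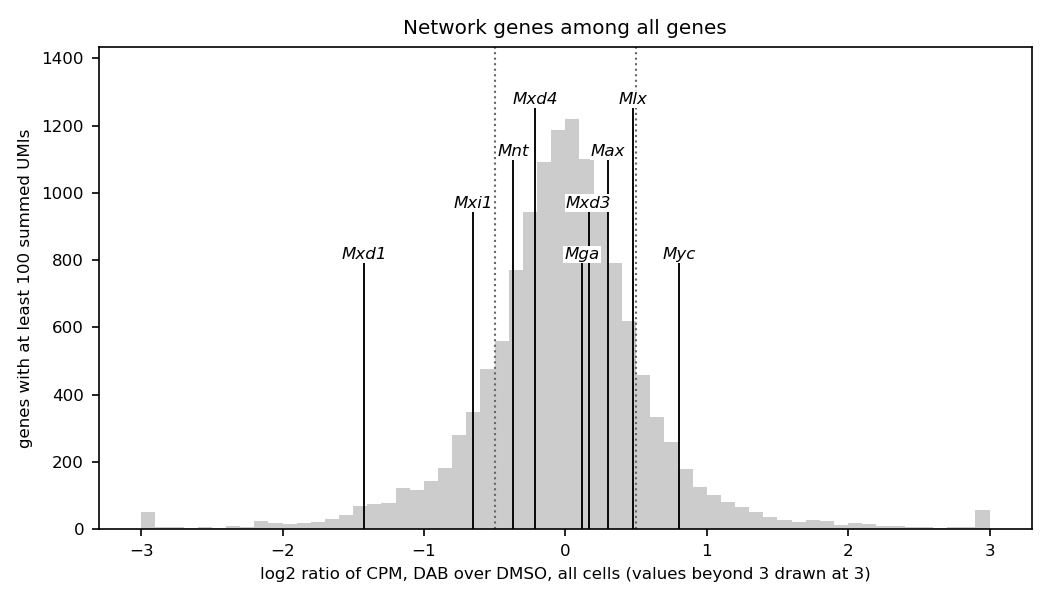
Histogram of the log2 ratio of CPM, DAB over DMSO, over all cells, for 13305 genes with at least 100 summed UMIs (y axis, number of genes per bin). Black lines mark the 9 network genes and dotted lines a log2 ratio of 0.5 in either direction: Mxd1 sits at -1.42, Mxi1 at -0.65 and Myc at 0.81, and the other 6 lie between the dotted lines.

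Some members share their place with a gene on the opposite strand. Mxd3 overlaps Prelid1, Mlx overlaps Psmc3ip and Mxi1 overlaps Gm10197. The counting used the Cell Ranger setting for this 5′ chemistry, which keeps strand. Its intron option is not stated, and the part of these overlaps was not tested.

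The cells were next grouped by marker genes, with the 9 members left out of the clustering. Of 25 clusters, 14 were given 1 of 11 class names, and 41.4% of DMSO and 36.9% of DAB cells remained in unnamed clusters. Of the classes, 8 held at least 100 cells per library. They were granulocyte progenitor-like (cluster K, Elane and Mpo), intermediate granulocyte-like (I, Ltf and Camp), mature PMN-like (C, E and R, Csf3r and Mmp9), chemokine-high granulocyte-like (D and F, Ccl3 and Ccl4), immature monocyte-like (A, Mmp12 and Spp1), mature monocyte-like (H, MHC class II genes), macrophage-like (T, C1q genes) and B cell-like (S, Cd79a). The granulocyte name of the chemokine-high class rests on S100a8 or Csf3r above the other clusters, and leading genes of both D and F included Gpnmb. Myc and Mlx were higher in DAB in all 8 classes, as were 14.4% of the 6718 genes with 20 UMIs or more in each. Mxd1, Mxi1 and Mnt were lower in DAB in all 8, as were 9.65% of those genes. Mxd3 did not reach 20 UMIs in each class, so the counts cover 8 of the 9 members. These counts are by sign alone. The interval lay below 0 in 7 classes for Mxd1, in 8 for Mxi1 and in only 4 for Mnt. Over the 19 clusters with at least 100 cells per library, Mnt was lower in DAB in 16 and higher in 3, with 5 intervals below 0.

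**Figure D2:**
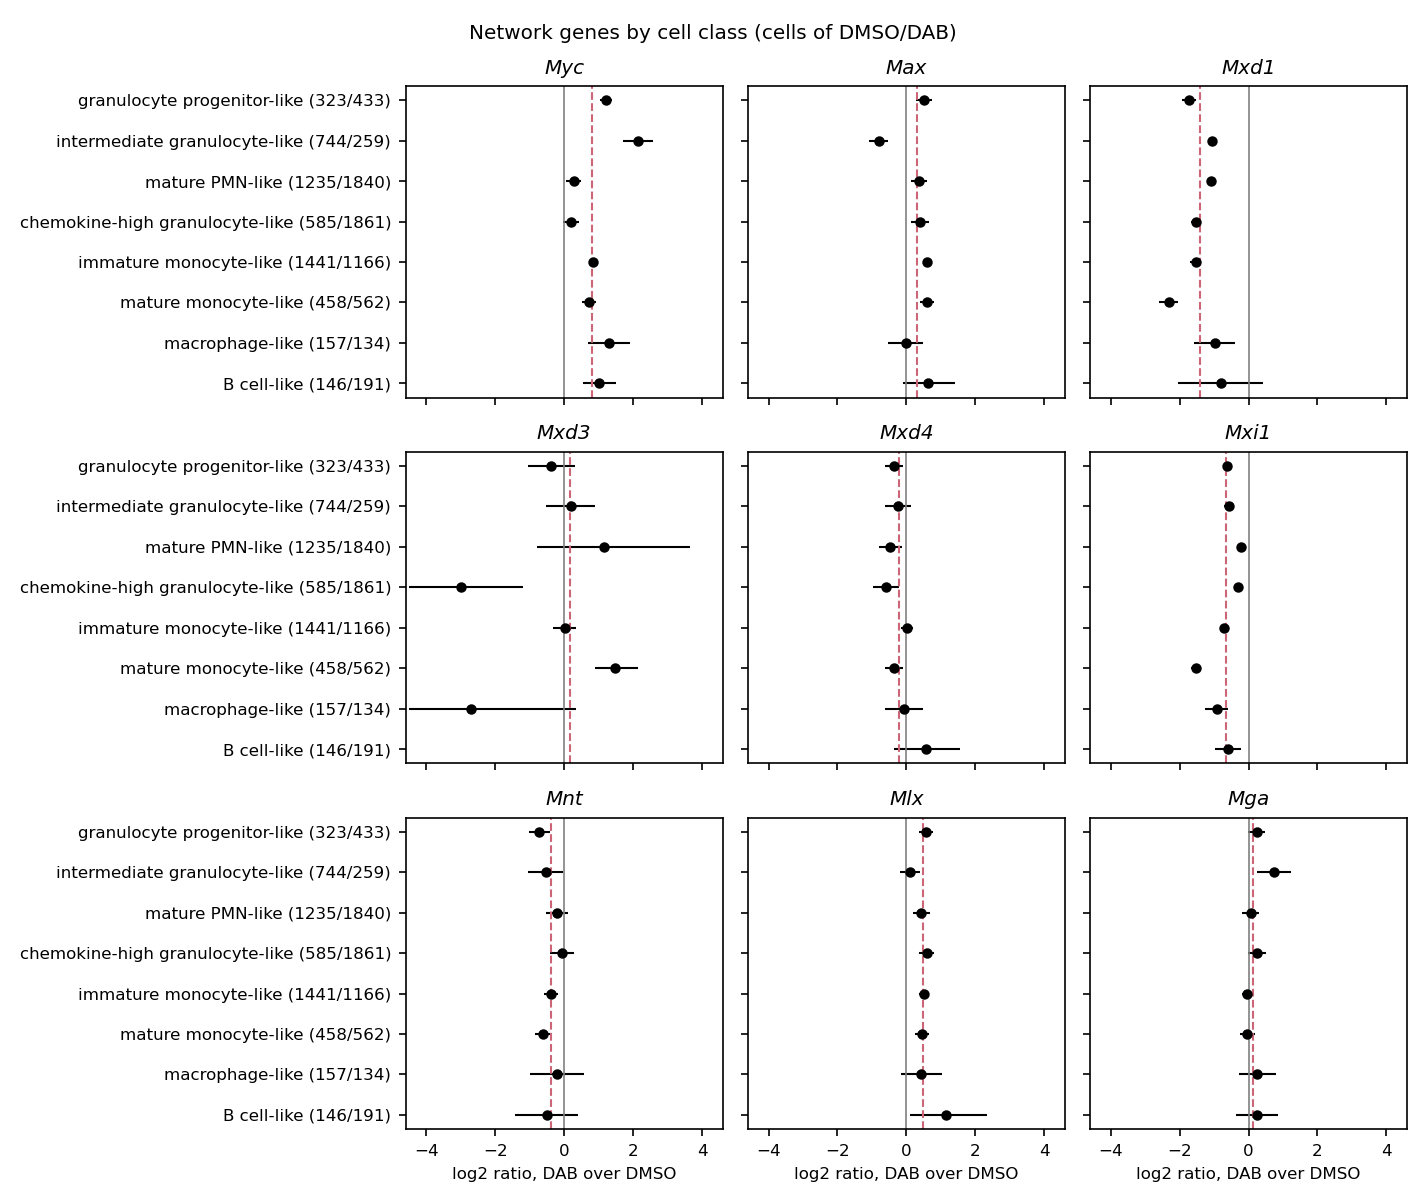
Log2 ratio of CPM, DAB over DMSO (x axis), in each class with at least 100 cells of each library, one panel per gene. Points are ratios of summed UMIs, bars are exact 95% intervals for counting error (cut at 4.5), the dashed line is the ratio over all cells and the numbers give the DMSO and DAB cells of the class. The Mxd1 and Mxi1 points all lie below 0 and the Myc and Mlx points above 0, while Max lies at -0.80 in intermediate granulocyte-like cells, and Mxd3 is not drawn for B cell-like cells, where DAB held 0 UMIs.

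Myc varied across classes most in DMSO. There its level was lowest in intermediate granulocyte-like cells, at 10.5 CPM (8.05 to 13.5), and 20.1 CPM in macrophage-like, 30.3 CPM in mature monocyte-like and 41.8 CPM in chemokine-high granulocyte-like cells. The next classes were mature PMN-like (49.1 CPM), granulocyte progenitor-like (50.0 CPM), immature monocyte-like (51.3 CPM) and B cell-like cells (68.0 CPM), and from 41.8 CPM upward the intervals of neighbours in this order overlapped. In DAB the 4 lowest classes lay close together, from 46.3 CPM (39.2 to 54.2) in intermediate granulocyte-like to 49.9 CPM in mature monocyte-like cells. Pooling hid differences here: the chemokine-high class (47.7 CPM) joined cluster D at 56.9 CPM (52.7 to 61.3) and cluster F at 19.6 CPM (15.5 to 24.5). Cluster F thus lay below intermediate granulocyte-like cells in DAB. Cluster C of the mature PMN-like class, at 36.8 CPM (29.7 to 45.2), was also lower, with overlapping intervals. Mature PMN-like cells had 59.6 CPM, immature monocyte-like cells 91.0 CPM, granulocyte progenitor-like cells 117 CPM (111 to 123) and B cell-like cells 137 CPM. The highest class exceeded the lowest 6.46-fold in DMSO and 2.96-fold in DAB. Over the 19 single clusters that met the same cell minimum, named or not, the spread was 7.23-fold in DMSO and 6.996-fold in DAB. The narrower spread of Myc in DAB thus held for the classes and not for the clusters.

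The log2 ratio of Myc was greatest in intermediate granulocyte-like cells, at 2.14 (1.70 to 2.59), from 61 UMIs in 744 DMSO cells and 154 UMIs in 259 DAB cells. It was 1.29 in macrophage-like, 1.23 in granulocyte progenitor-like, 1.01 in B cell-like, 0.83 in immature monocyte-like and 0.72 in mature monocyte-like cells. Of the 8 classes, the smallest ratios were those of mature PMN-like cells, at 0.28 (0.07 to 0.50), and of chemokine-high cells, at 0.19 (-0.03 to 0.42). The direction in these last classes depended on how the cells were clustered. In mature PMN-like cells it turned to -0.24 when the members took part in the clustering and to -0.43 without alignment of the libraries, and in chemokine-high cells it was -0.09 at a lower resolution. The classes leave out unnamed clusters with neutrophil genes. In cluster B (S100a9 and Ly6g) Myc was 62.9 CPM in DMSO and 107 CPM in DAB, a log2 ratio of 0.76. Cluster L (Chil3 and S100a9) had 76.1 CPM, the highest DMSO level of the 19 clusters, and 130 CPM in DAB (0.77). Over these 19 clusters Myc was higher in DAB in 18, with 13 intervals above 0, and lower in cluster P (-0.08).

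Of the 9 members, Mxd1 had the widest range of levels over the classes in DMSO. It was highest in intermediate granulocyte-like cells, at 463 CPM (446 to 481), followed by mature PMN-like (254 CPM), chemokine-high (136 CPM) and granulocyte progenitor-like cells (89.4 CPM), each separated from its neighbour by its interval. Immature monocyte-like (46.3 CPM), mature monocyte-like (43.2 CPM) and macrophage-like cells (43.2 CPM) had overlapping intervals, and B cell-like cells were lowest at 18.3 CPM (10.0 to 30.7). In DAB the granulocyte classes kept this order at lower levels, with 224 CPM (208 to 240.5) in intermediate, 119 CPM in mature PMN-like, 47.2 CPM in chemokine-high and 27.0 CPM in progenitor-like cells. Macrophage-like cells then had 22.0 CPM, immature monocyte-like cells 16.0 CPM, B cell-like cells 10.5 CPM and mature monocyte-like cells 8.69 CPM (7.35 to 10.2). The highest class exceeded the lowest 25.3-fold in DMSO and 25.8-fold in DAB, where the part of background in the lowest level was not tested.

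In mature monocyte-like cells the log2 ratio of Mxd1 was -2.31 (-2.60 to -2.04), but the DAB level there was no higher than in B cell-like cells. That level came from 149 UMIs in 562 cells, against 12 UMIs in 191 B cell-like cells. Median depths over both libraries were 24546 and 4453 UMIs, so similar CPM need not mean a similar part of background. The part of background in that level was not tested, so the size of this ratio is uncertain and its interval covers only counting error. The log2 ratio was -1.73 in granulocyte progenitor-like, -1.53 in immature monocyte-like, -1.52 in chemokine-high, -1.09 in mature PMN-like, -1.05 in intermediate granulocyte-like and -0.97 in macrophage-like cells. In B cell-like cells the ratio of -0.80 rested on 14 and 12 UMIs and its interval held 0. In all 19 clusters of this size, named or not, Mxd1 was lower in DAB, as it was in all 38 class values under the other clusterings. The size in mature PMN-like cells was less stable, with a log2 ratio of -0.14 when the libraries were not aligned. Activated dendritic cell-like cells (cluster V, Ccr7 and Fscn1) stood outside this pattern, although with 151 DMSO and 74 DAB cells they fell short of the class size used. Their Mxd1 was 108 CPM (95.6 to 121) in DMSO and 121 CPM (104 to 141) in DAB, and their Myc only 5.34 CPM and 5.54 CPM.

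Mxi1 was lower in DAB in all 8 classes, with intervals that all left out 0, and in 18 of the 19 clusters. The exception was cluster E of the mature PMN-like class, with 161 CPM in DMSO and 181 CPM in DAB, a log2 ratio of 0.17 (0.0048 to 0.34). Cluster C of the same class had a log2 ratio of -0.38 and made up 759 of its 1235 DMSO cells but 766 of its 1840 DAB cells. In DMSO it lay between 114 CPM in mature monocyte-like and 241 CPM in intermediate granulocyte-like cells. In DAB it lay between 39.2 CPM (36.3 to 42.3) in mature monocyte-like and 198 CPM (189 to 208) in mature PMN-like cells, so the spread over classes was 2.12-fold in DMSO and 5.05-fold in DAB. The log2 ratio was -1.54 in mature monocyte-like cells and -0.22 in mature PMN-like cells. In the latter it was 0.39 without alignment of the libraries.

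**Figure D3:**
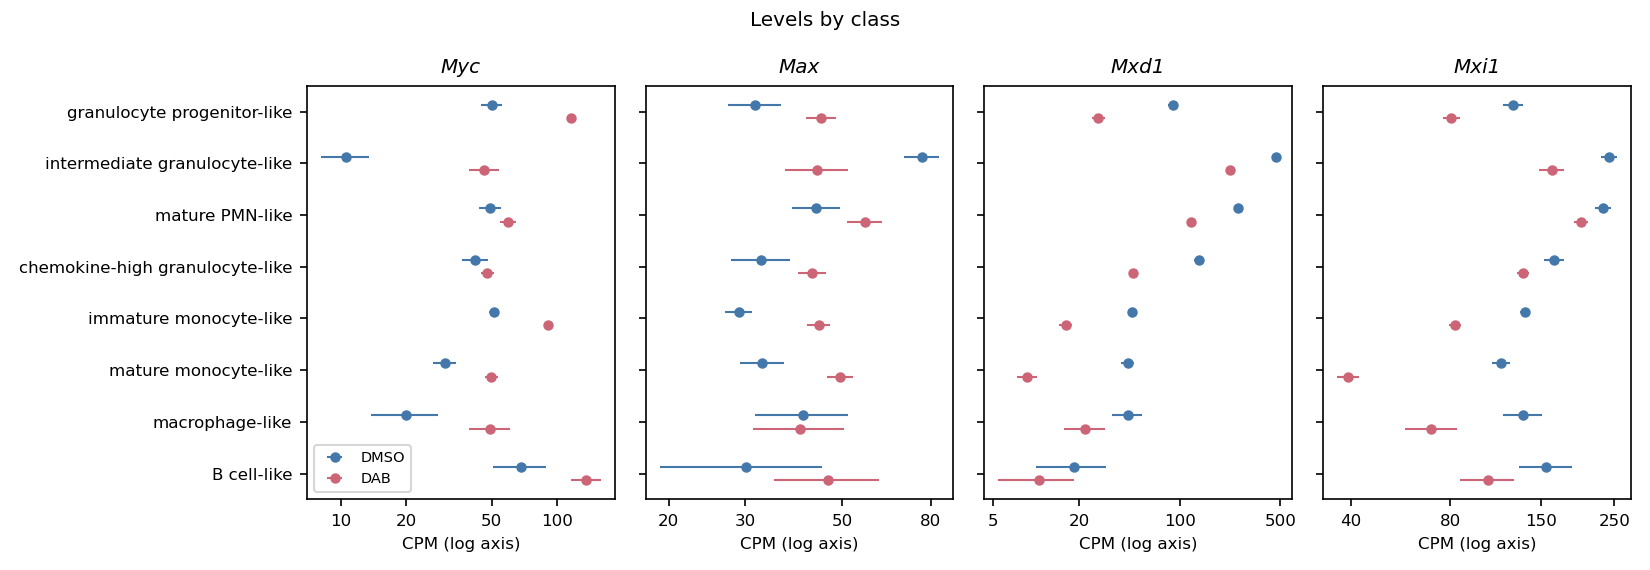
CPM of Myc, Max, Mxd1 and Mxi1 (log axis) in the 8 classes, DMSO in blue and DAB in red, with exact Poisson 95% intervals for counting error. Of the 8 classes, intermediate granulocyte-like cells have the highest Mxd1 (463 and 224 CPM) and the lowest Myc (10.5 and 46.3 CPM) in both libraries. Max is lower in DAB in these cells.

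By sign, Max was higher in DAB in 6 of the 8 classes and lower in 2. The interval held 0 in B cell-like cells, at 0.63 (-0.10 to 1.40), and in macrophage-like cells, at -0.02 (-0.53 to 0.48). Max was higher in DAB, with intervals above 0, in 5 classes. Its log2 ratio was 0.61 in immature monocyte-like, 0.59 in mature monocyte-like, 0.50 in granulocyte progenitor-like, 0.39 in chemokine-high and 0.37 in mature PMN-like cells. In intermediate granulocyte-like cells Max was 76.3 CPM (69.3 to 83.7) in DMSO, the highest level of the 8 classes, and 43.9 CPM (37.0 to 51.6) in DAB, a log2 ratio of -0.80 (-1.08 to -0.52), and between -0.80 and -0.71 in the other clusterings. Mlx ranged from a log2 ratio of 0.11 in these cells to 1.15 (0.09 to 2.33) in B cell-like cells. The B cell-like value of Mlx rested on 10 DMSO and 33 DAB UMIs. Mnt ranged from -0.73 in granulocyte progenitor-like to -0.07 in chemokine-high cells. Mga, which joins MAX to Polycomb proteins, was 13.1 CPM in DMSO and 21.9 CPM in DAB in intermediate granulocyte-like cells, its lowest class in both libraries, and among the 8 classes its interval lay above 0 only there. Mxd4 was lower in DAB in 6 of 8 classes, with log2 ratios from -0.60 in chemokine-high to 0.56 in B cell-like cells. The latter rested on 15 DMSO and 33 DAB UMIs, and its interval (-0.36 to 1.55) held 0.

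Because MXD1 and MYC compete for MAX, their UMIs were also set against each other within each class. There were 2.96 Mxd1 UMIs per Myc UMI in DMSO (2.86 to 3.07) and 0.63 in DAB (0.61 to 0.65), a 4.69-fold lower ratio. Intermediate granulocyte-like cells had 44.0 (34.2 to 57.7) in DMSO and 4.84 (4.06 to 5.79) in DAB, mature PMN-like cells 5.17 and 1.99, and chemokine-high cells 3.24 and 0.99. Granulocyte progenitor-like cells had 1.79 in DMSO and 0.23 in DAB, mature monocyte-like cells 1.43 and 0.17, immature monocyte-like cells 0.90 and 0.18, macrophage-like cells 2.15 and 0.45 and B cell-like cells 0.27 and 0.08. The ratio was thus lower in DAB in all 8 classes, between 2.59-fold in mature PMN-like and 9.10-fold in intermediate granulocyte-like cells. This direction follows from the Mxd1 and Myc levels given above and adds no further result. In mature PMN-like cells it depended on the clustering. Without alignment of the libraries the log2 ratio there was -0.14 for Mxd1 and -0.43 for Myc, so Mxd1 per Myc was not lower in DAB. These are counts of RNA molecules and give no protein level. In activated dendritic cell-like cells the ratio was 20.2 (11.8 to 37.5) in DMSO and 21.9 (10.9 to 51.5) in DAB.

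**Figure D4:**
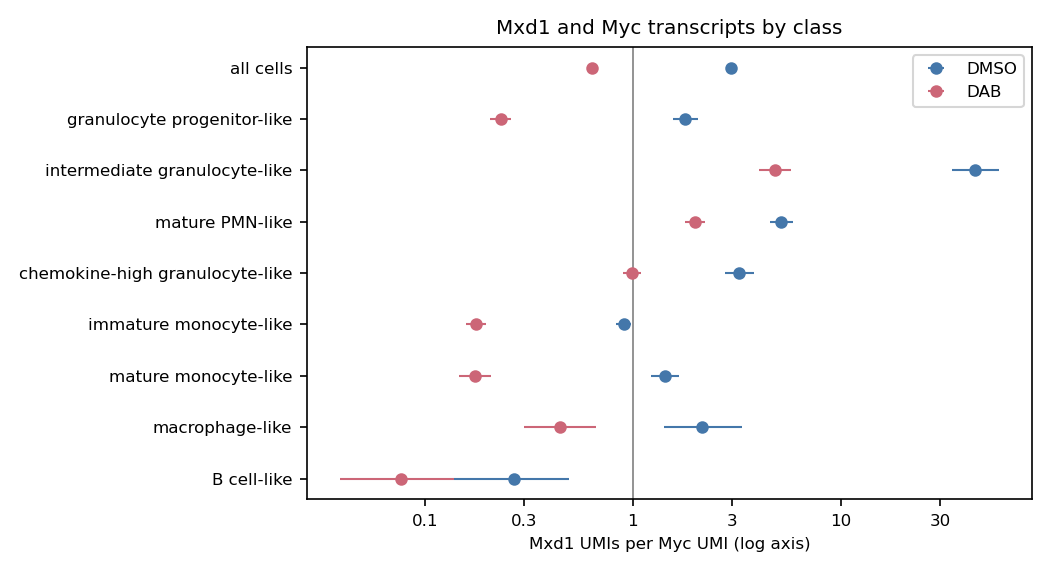
Mxd1 UMIs per Myc UMI (log axis) in all cells and in the 8 classes, DMSO in blue and DAB in red, with exact binomial 95% intervals for counting error. Each DAB point lies to the left of its DMSO point, from 44.0 to 4.84 in intermediate granulocyte-like cells and from 2.96 to 0.63 in all cells.

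At the level of single cells, depth was made equal by drawing 1500 UMIs from each cell, with 432 shallower DMSO cells and 287 such DAB cells set aside. The share of cells with an Mxd1 UMI was then 21.6% in DMSO (20.7 to 22.4) and 10.0% in DAB (9.45 to 10.6), and without thinning 51.8% and 33.4%. For Myc the share was 5.16% in DMSO (4.70 to 5.65) and 8.34% in DAB (7.81 to 8.90), and without thinning 20.2% and 35.0%. In mature PMN-like cells Mxd1 was found in 31.3% and 16.4% of thinned cells, and in intermediate granulocyte-like cells in 45.2% and 27.9%. B cell-like cells gave 3.73% in DMSO and 0.56% in DAB. S100a8 in these cells stood at 13.1% of its all-cell CPM in DMSO and 3.63% in DAB. The source of these UMIs, such as free RNA or remaining doublets, was not tested. Median depths of B cell-like cells were 4005.5 and 5059 UMIs, against 7560.5 and 9461 UMIs in all cells. Mxd1 in B cell-like cells stood at 13.6% of its all-cell CPM in DMSO and 21.0% in DAB, in DAB a larger part than S100a8. The DAB share of Mxd1 in mature monocyte-like cells, 1.61% (0.74 to 3.03), overlapped the B cell-like interval (0.014 to 3.07), which rests on 1 of 179 cells. Its level there, 8.69 CPM, was no higher than the 10.5 CPM of B cell-like cells, although mature monocyte-like cells were the deeper class. How much of the Mxd1 in either class is background was not tested.

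Myc and Mxd1 were also compared within the same thinned cells. Among DMSO cells with an Mxd1 UMI 2.70% (2.01 to 3.54) had a Myc UMI, against 5.84% (5.29 to 6.43) of those without, and in DAB the shares were 5.19% (3.91 to 6.73) and 8.69% (8.13 to 9.29). Within each of the 8 classes the intervals of the 2 shares overlapped in both libraries, but no class held more than 12 cells with both UMIs, and overlapping intervals do not show that the shares were alike. The intervals overlapped least in chemokine-high cells of DMSO, where 1 of 153 cells with an Mxd1 UMI had a Myc UMI (0.65%, 0.017 to 3.59), against 5.04% (3.10 to 7.67) of those without.

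Mxd3 differed from its relatives in being found mainly in cycling cells. Cells with at least 3 UMIs of 22 proliferation genes after thinning were called cycling (750 DMSO and 766 DAB cells) and compared with the 6330 DMSO and 7605 DAB cells that had none. Mxd3 measured 23.7 CPM (21.1 to 26.4) in cycling and 0.31 CPM (0.19 to 0.49) in other DMSO cells, from 317 and 19 UMIs, and 24.2 CPM (22.2 to 26.3) against 0.43 CPM (0.30 to 0.58) in DAB. Of the members, 1 (Mxd3) was higher in cycling cells past the fold in both libraries, against 16.4% of all genes, and 2 (Mxd1 and Mxd4) were lower, against 7.14%. In the 6 pairs of class and library with at least 50 cells of either kind, Mxd3 was higher in cycling cells in all 6, with log2 ratios from 4.19 to 7.45.

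Mxd4 showed the reverse, with 16.3 CPM in cycling and 26.7 CPM in other DMSO cells, and 11.3 CPM and 24.5 CPM in DAB. With at least 2 UMIs taken as cycling the DMSO difference was -0.45 on the log2 scale and missed the fold. Mxd4 was lower in cycling cells in all 6 pairs, with log2 ratios from -1.90 to -0.74. Mxi1 was lower as well, at 125 CPM against 171 CPM in DMSO and 61.7 CPM against 117 CPM in DAB, and below 0 in all 6 pairs. Mxd1 was lower over all cells (95.6 CPM against 152 CPM in DMSO, 28.3 CPM against 57.7 CPM in DAB). It was below 0 in 4 of the 6 pairs, 2 of them past the fold, with a lowest log2 ratio of -1.03. The 2 pairs above 0 were those of immature monocyte-like cells, with log2 ratios of 0.14 in DMSO and 0.05 in DAB. Of the mature PMN-like cells, in which Mxd1 was high, 0.78% were cycling in DMSO and 0.51% in DAB, against 19.2% and 16.1% of the immature monocyte-like cells. The part of the class mix in the all-cell difference of Mxd1 was not tested.

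Myc was higher in cycling cells by a log2 ratio of 0.28 in DMSO and 0.48 in DAB. In granulocyte progenitor-like cells it measured 77.9 CPM in cycling and 35.1 CPM in other DMSO cells, a log2 ratio of 1.15, and 150 CPM and 88.8 CPM in DAB, a log2 ratio of 0.76. In immature monocyte-like cells it was not higher, with log2 ratios of -0.30 in DMSO and -0.03 in DAB. Both cycling and other progenitor-like cells had more Myc in DAB than in DMSO. Over all cells the share of cycling cells was lower in DAB, at 7.52% (7.01 to 8.05), than in DMSO, at 8.72% (8.13 to 9.34). The classes went both ways. In granulocyte progenitor-like cells the share was 20.4% (16.1 to 25.2) in DMSO and 24.9% (20.9 to 29.3) in DAB. In immature monocyte-like cells it was 19.2% (17.2 to 21.3) and 16.1% (14.0 to 18.3), so the intervals overlapped in both classes. They were separate in mature monocyte-like cells, at 7.95% (5.63 to 10.8) in DMSO and 16.1% (13.1 to 19.4) in DAB. Chemokine-high cells also had separate intervals, at 5.09% (3.41 to 7.27) in DMSO and 0.94% (0.55 to 1.50) in DAB. Genes of the list behind the cycling call themselves differed between the libraries in both directions, as given further down. The part of this in the shares was not tested.

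**Figure D5:**
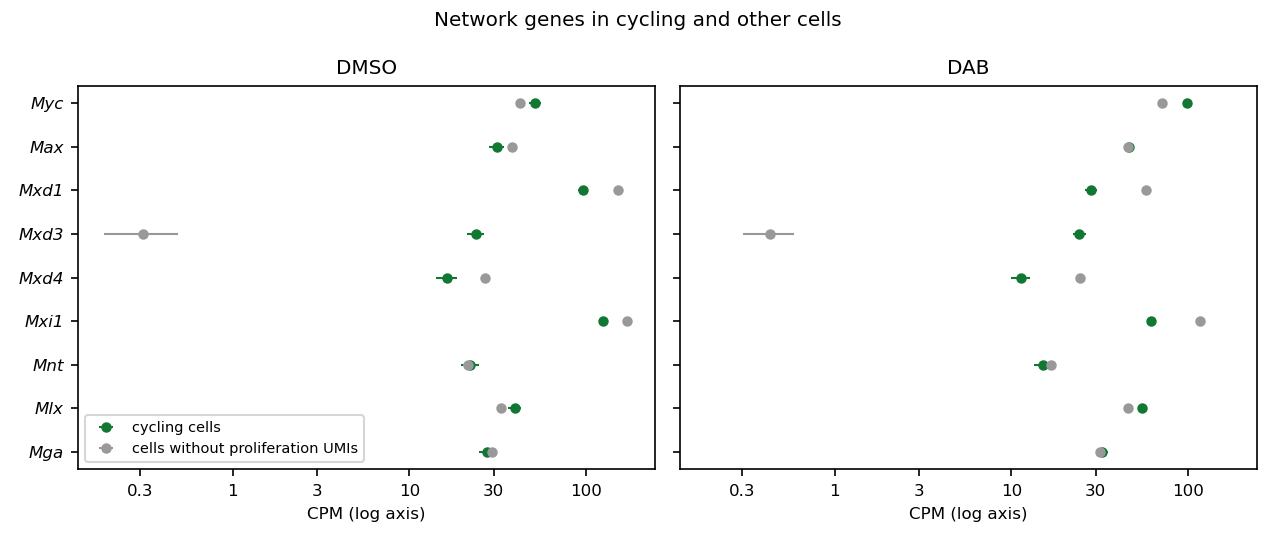
CPM (log axis) of the 9 network genes in cycling cells (green, at least 3 UMIs of the proliferation genes after thinning) and in cells with no such UMI (grey), DMSO on the left and DAB on the right, with exact Poisson 95% intervals for counting error. Mxd3 stands at 23.7 against 0.31 CPM in DMSO and 24.2 against 0.43 CPM in DAB, and Mxd4, Mxi1 and Mxd1 lie lower in cycling cells.

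Mxd3 differed between the libraries in opposite directions in 2 classes. It was higher in DAB in mature monocyte-like cells (2.99 CPM in DMSO and 8.40 CPM in DAB, log2 ratio 1.49) and lower in chemokine-high granulocyte-like cells (10 and 4 UMIs, log2 ratio -3.00). The share of cycling cells moved the same way, from 7.95% to 16.1% in mature monocyte-like and from 5.09% to 0.94% in chemokine-high cells. Without cell cycle regression in the clustering the log2 ratios were 0.36 and -0.25. The part of cycling in the Mxd3 values was not tested.

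The genes around the members were taken from lists. Their counts past the fold over all cells stand beside 14.4% of all genes higher and 16% lower. Of the other E-box factors, 7 of 9 were detected, 3 were lower in DAB past the fold and none was higher, with a median log2 ratio of -0.32 (-0.20 as a mean over cells). Mitf, a factor of lysosomal and mast cell genes, measured 87.5 CPM in DMSO and 41.3 CPM in DAB (log2 ratio -1.08), Tfeb, a master factor of lysosome genes, 24.6 CPM and 15.9 CPM (-0.63), and Usf2 87.9 CPM and 58.3 CPM (-0.59). Mitf and Usf2 were lower in all 8 classes. Mlxip, which encodes MondoA, had a log2 ratio of -0.32, Usf1 of -0.15, Tfe3 of -0.06 and Mycn, at 2.53 CPM and 3.35 CPM, of 0.40. Txnip and Arrdc4, the arrestin-like genes that MondoA and MLX are known to activate, were both lower past the fold over all cells. They had 395 CPM and 278 CPM (log2 ratio -0.50) and 106 CPM and 68.7 CPM (-0.62). By sign alone, each was lower in 6 of 8 classes and higher in 2. Their median log2 ratio was -0.56, and -0.40 as a mean over cells, at which at least 1 of them missed the fold.

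The 30 genes listed as activated by MYC all had a log2 ratio above 0 over all cells, against 49.7% of all genes. Of these, 18 were past the fold and none was lower, with a median log2 ratio of 0.62. This list, like the others, was chosen with earlier results of these data known. It holds ribosome biogenesis genes, so its counts are no independent evidence of MYC activity. Among the 4 with the highest DMSO level, Ldha measured 1835 CPM and 1911 CPM (log2 ratio 0.06), Npm1 706 CPM and 761 CPM (0.11) and Eif4a1 401 CPM and 502 CPM (0.32), while Ran, the nuclear transport GTPase, measured 274 CPM and 434 CPM (0.66). Genes chosen after their values were seen show the upper end of the list: Ccnd2, a D-type cyclin, had a log2 ratio of 1.39, and Nop56 and Nop58, proteins of the box C/D ribonucleoprotein that modifies ribosomal RNA, had 1.31 and 1.30, and these 3 were higher in all 8 classes. By class the median log2 ratio of the list was 1.62 in intermediate granulocyte-like cells (24 of 28 genes past the fold, 1 lower), 0.78 in granulocyte progenitor-like, 0.68 in mature monocyte-like and 0.54 in immature monocyte-like cells. It was 0.44 in mature PMN-like, 0.36 in B cell-like, 0.31 in macrophage-like and 0.18 in chemokine-high cells, beside all-gene medians between -0.04 and 0.16. The share of all genes past the fold within a class was not counted, so the class counts have no such background.

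The 12 genes listed as repressed by MYC were mixed, with 5 lower and 1 higher past the fold and a median log2 ratio of -0.44 (-0.21 as a mean over cells). Among the 4 with the highest DMSO level, Ndrg1 measured 171 CPM and 102 CPM (log2 ratio -0.74) and Btg1, an antiproliferative gene, 289 CPM and 195 CPM (-0.57), while Cdkn1a, the p21 inhibitor, measured 609 CPM and 634 CPM (0.06) and Cd9 502 CPM and 570 CPM (0.18). In mature monocyte-like cells all 12 were below 0, with 9 past the fold and a median of -1.17, beside an all-gene median of 0.00017. Here too the share of all genes past the fold was not counted. In mature PMN-like and chemokine-high cells the medians were -0.05 and -0.02.

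The partner lists were less one-sided. Of 11 MYC cofactors 3 were higher past the fold and none lower (median 0.23), with log2 ratios of 0.40 for both Cdk9 and Ruvbl2 and -0.16 for Trrap. Of 11 genes of MYC turnover 2 were higher and 2 lower (median 0.10). Usp22, a deubiquitinase, was the one past the fold among its 4 most abundant genes, with 47.1 CPM and 31.1 CPM (log2 ratio -0.60), beside 0.10 for Gsk3b, 0.10 for Stub1 and 0.02 for Huwe1. Of the 10 corepressor genes that serve the MXD proteins and MNT, 1 was higher and 1 lower (median 0.05). Sap30, a subunit of the SIN3 complex, measured 68.9 CPM and 41.1 CPM (-0.75) and was lower in all 8 classes, while Sin3b had -0.0033, Ncor1 -0.23 and Sap18 -0.18. Of 10 partners of MGA 4 were higher and 1 lower (median 0.35), among them Tfdp1 at 0.61, with Rybp at 0.26, Yaf2 at 0.08 and Cbx3 at -0.16. Of the 22 proliferation genes 5 were higher and 4 lower (median -0.02), with Mki67 at -0.55, Ube2c at -0.23, Top2a at -0.19 and Pcna at 0.15. The list was split, and the genes past the fold are named here after their values were seen. Those higher were the DNA replication genes Mcm2 (log2 ratio 1.05), Tyms (0.81), Mcm5 (0.76), Mcm3 (0.54) and Mcm6 (0.52), and those lower, beside Mki67, were the mitosis genes Cenpf (-0.85), Hmmr (-0.65) and Nusap1 (-0.65).

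Finally, the genes whose levels were most like each member's were sought over the 16 sums of class and library, by Pearson correlation of log2(CPM + 10) among 8064 genes. These points share libraries and cell depth, and the correlations are descriptions. Nearest to Myc were Xpo5 (r = 0.93), Ppan (0.93) and Nolc1 (0.92). Nearest to Mxd1 were Dgat1 (0.97), which makes triglycerides, Acsl1 (0.96), which activates fatty acids, and Gucd1 (0.95), and nearest to Mxi1 Osbpl9 (0.95), Rnf19a (0.94) and Inpp5a (0.93). Nearest to Mxd3 were the mitotic genes Ccna2, Birc5 and Cenpe (each 0.86), of which the first 2 belong to the proliferation list. Mnt had Pex13 (0.96), Fbxl20 (0.93) and Tox4 (0.92), Mlx had 2510039O18Rik (0.95), Selenof (0.93) and Cdkn2aipnl (0.90), and Mga had Dcaf17 (0.94), Cdkal1 (0.92) and Plbd2 (0.92). Max had Usp46 (0.85), Pcsk7 (0.81) and Mppe1 (0.79), and Mxd4 had Nck2 (0.69), Cpq (0.68) and Itga6 (0.67), the weakest matches. Among the members, Mxd1 and Mxi1 were the closest pair (r = 0.82), Myc and Mga had r = 0.71, and Myc and Mxd1 had r = -0.59.

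The libraries differed in depth. The DMSO file held 9855 barcodes and 106792967 UMIs and the DAB file 11631 barcodes and 165506902 UMIs, of which 9032 and 10476 cells were kept, and 152 barcode sequences occurred in both. Median UMIs per cluster ran from 2418 to 25160, and the mature PMN-like and B cell-like clusters were among the shallow ones.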

How the data were processed

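Per the labels, the authors ran Cell Ranger 7.0.0 on mm10, and the deposited matrices hold raw UMI counts of each gene in each barcode, not normalized. The authors' clusters and regulon scores were not used here. Barcodes over 10% mitochondrial UMIs (55 DMSO, 89 DAB) and the highest doublet scores (0.8% per 1000 cells; 768 and 1066) were removed, and 27.5% of 400 planted doublets were marked, so doublets remain. Pearson residuals of 3000 variable genes without the members, with cell cycle and mitochondrial scores regressed out, gave 40 components, aligned by mutual nearest neighbours (k = 20), and Leiden clusters (resolution 0.9). A cluster took a class name from at least 3 markers at a log2 fold of at least 1 over the other clusters, by a rule set after clusters had been seen. Summed UMIs were scaled to CPM with exact Poisson intervals, shares had exact binomial (Clopper-Pearson) intervals, and ratios intervals from the split of the summed UMIs, all at 95%. UMIs of 1 library are no replicates, so no test was made. The calculation of ratios and intervals was checked on simulated Poisson counts, which hold no spread between cells or cultures and say nothing about it. Python 3.11.15, numpy 2.4.6, scipy 1.17.1, leidenalg 0.10.2 and seed 1 were used.

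The members and lists were chosen with earlier results of these data known, and a list of MYC-activated genes that holds ribosome biogenesis genes is no independent evidence. The text names the 9 members, each detected gene of the short lists, the 4 genes with the highest DMSO CPM of every other list, and 3 like genes per member among genes with at least 20 CPM in a sum, and says where a gene was named after its values were seen. Of the genes this rule names, 1 is not reported here. Gene positions come from the GENCODE M21 annotation of GRCm38, whose IDs matched all 9 members, and promoters from RefSeq. Protein sequences were not used here.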

Additional observations from a re-analysis of the deposited data

Results flagged for a closer look

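Of the 9 members, 2 differed between the libraries in opposite directions in different classes, with each interval on its own side of 0, and the difference between classes was not tested. The share of all genes with such opposite intervals is not given, so the count of 2 has no background. The log2 ratio of Max, DAB over DMSO, was 0.39 in chemokine-high granulocyte-like, 0.50 in granulocyte progenitor-like, 0.61 in immature monocyte-like, 0.37 in mature PMN-like and 0.59 in mature monocyte-like cells, but -0.80 in intermediate granulocyte-like cells. That of Mxd3 was 1.49 in mature monocyte-like and -3.00 in chemokine-high granulocyte-like cells, where the shares of cycling cells also differed in these directions and DAB held few Mxd3 UMIs.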

How the results depend on the processing

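Over all cells, Myc stayed higher and Mxd1 lower past the fold without the filter on barcodes, without doublet removal, with scaling by the median of ratios, as a mean over cells and with the DMSO class mix in both libraries, with log2 ratios of 0.72 to 0.83 and of -1.42 to -1.27. As a mean over cells, in which each cell weighs the same, the members lower past the fold numbered 1 and not 2, because Mxi1 came to -0.49. With a log2 ratio of at least 1 required, 0 members were higher and 1 was lower. The share of all genes is not given for that threshold or for the mean over cells, so these member counts have no background. Mxd3 changed sign, from 0.16 to -0.14 as a mean over cells, -0.09 without doublet removal and -0.02 without the filter. In other clusterings (resolutions 0.5 and 1.5, with the members, no alignment, no cell cycle regression) Mxd1 was lower in 38 of 38 class values, Mxi1 in 37, Mnt in 33, and Myc was higher in 35 and Mlx in 37. At resolution 0.5 no cluster took the granulocyte progenitor-like or mature PMN-like name. All 18 shares of cells (9 members in 2 libraries) changed with the depth of thinning, and lower shares in shallow cells show depth. The median of the proliferation list was -0.31 as a mean over cells. The shift of all genes under the other scaling was -0.0032. No paired analysis was possible because each condition has 1 library. Levels of a few CPM (Mxd3, Mycn) rest on few UMIs.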
